A study of Mus musculus with 30 samples.

Results

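Sites of the transcription factors cJun and ATF2 in 3T3-L1 pre-adipocytes were compared by listing of the same genomic interval. An interval listed for cJun and for ATF2 was counted as shared, and the other sites formed the classes cJun only and ATF2 only. The shared class held 2015 sites, cJun only held 4160 and ATF2 only held 9532. Together these 15707 sites made up 45.2% of the 34724 intervals listed for any of 9 factors on chromosomes 1 to 19 and X.

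The study mapped factor binding by chromatin immunoprecipitation with sequencing (ChIP-seq) at an early time of fat cell formation. 3T3-L1 is an established mouse fibroblast line that becomes fat cells on hormone treatment. The cJun and the ATF2 library came from cells at the same stage: 2 days past confluence they received dexamethasone (1 μM), IBMX (0.5 mM), insulin (1 μg per ml) and fetal calf serum (10%), and they were collected 4 h later. The other 7 lists, for ATF7, FOSL2, JunB, KLF4, KLF5, VDR and RXR, carried the same labels for cells and treatment. No untreated list was analysed here, so nothing below is a response to the cocktail, and the labelled cell type could not be checked against expression.

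cJun and ATF2 are bZIP transcription factors, which pair through a leucine zipper and hold DNA as dimers. cJun is an AP-1 subunit. With FOS proteins such as FOSL2 it is known to bind the AP-1 (TPA response) element, and with ATF2 it is known to bind the related cyclic AMP response element, as in the regulation of the Jun gene itself. JunB is a second JUN protein with an overlapping choice of partners, and ATF7 is the closest relative of ATF2. In pre-adipocytes, cyclic AMP signalling and AP-1 proteins belong to the early events that precede the fat cell programme. KLF4 and KLF5 are zinc-finger factors with known roles early in adipogenesis, and VDR and RXR are nuclear receptors that bind as a heterodimer.

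No list was replicated (1 library for each factor) and none gave a score beside the positions, so depth is unknown and no p-value is given. Each share below carries an exact Clopper-Pearson 95% interval, and each difference of shares carries a Newcombe 95% interval. Both cover counting error only, and neither covers variation between cultures, antibodies or libraries. The number of the 20 chromosomes that showed the same direction is given as a description, since chromosomes of 1 library are not replicates. Lists from a population of cells do not show whether 2 proteins sat on the same DNA molecule, and listing of an interval does not show a dimer. cJun and JunB, and likewise ATF2 and ATF7, are related proteins listed at many of the same intervals, and the part of antibody cross-recognition in this was not tested.

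A minority of sites was shared. ATF2 was listed at 32.6% of the 6175 cJun sites (interval 31.5 to 33.8), and cJun was listed at 17.5% of the 11547 ATF2 sites (16.8 to 18.2). Both shares have the same 2015 sites on top, so they differ by list length alone. For scale, ATF2 was listed at 33.3% and cJun at 17.8% of all intervals. Both shares of sharing were thus about as high as over the common set, which holds only intervals with at least 1 listed factor. At cJun sites, ATF2 was about as frequent as FOSL2 (32.8%, 31.6 to 34.0), above ATF7 (24.8%, 23.7 to 25.9) and far below JunB (80.1%, 79.1 to 81.1). FOSL2, ATF7 and JunB each lay above their shares over all intervals (18.1%, 21.2% and 29.0%), and ATF2 did not. KLF5 (66.0%), RXR (63.3%), VDR (60.9%) and KLF4 (37.2%) were also more frequent than ATF2 at cJun sites. At ATF2 sites, cJun was the least frequent of the 8 factors, below KLF4 (19.9%, 19.2 to 20.7), JunB (28.6%, 27.8 to 29.4) and FOSL2 (29.3%, 28.5 to 30.1), while ATF7 reached 42.1% (41.2 to 43.0). Over chromosomes, the share of cJun sites listed for ATF2 ran from 11.2% on X, where 11 of 98 sites were shared, through a median of 32.1% to 40.5% on chromosome 19. The share of ATF2 sites listed for cJun ran from 8.66% on X through a median of 17.3% to 22.6% on chromosome 6.

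The 3 classes differed in how many of the other 7 factors they carried. Shared sites held 4.98 ± 1.75 other factors on average (SD over 2015 sites), cJun only sites 3.01 ± 1.76 (4160 sites) and ATF2 only sites 1.63 ± 1.78 (9532 sites). The medians were 5, 3 and 1. This order held on all 20 chromosomes for each pair of classes. The lowest chromosome mean of the shared class was 4.18, the highest of cJun only was 3.23 and the highest of ATF2 only was 1.78, so that the chromosome means of the classes did not overlap (the lowest of cJun only was 2.52). Intervals in neither list averaged 1.71, but each of them had to carry at least 1 other factor to be listed at all.

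All 7 other factors were present at 504 shared sites (25.0%, 23.1 to 26.96), at 41 cJun only sites (0.986%, 0.708 to 1.33) and at 143 ATF2 only sites (1.50%, 1.27 to 1.76). All 7 were thus present at 1 in 4 shared sites and seldom in the other classes. None of the 7 was present at 9 shared sites (0.447%, 0.204 to 0.846), at 367 cJun only sites (8.82%, 7.98 to 9.73) and at 3249 ATF2 only sites (34.1%, 33.1 to 35.0). ATF2 therefore had a large class of sites where it was listed alone, and the pair without further company was rare. Sites with 5 or more others were 64.7% of the shared class (62.5 to 66.8), 25.1% of cJun only (23.8 to 26.5) and 9.41% of ATF2 only (8.83 to 10.0). Among the 19017 intervals in neither list, 472 held 5 or more others (2.48%, 2.27 to 2.71). All 7 were present at 19 of them (0.0999%, 0.0602 to 0.156), and none of them can lack all 7.

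**Figure D1:**
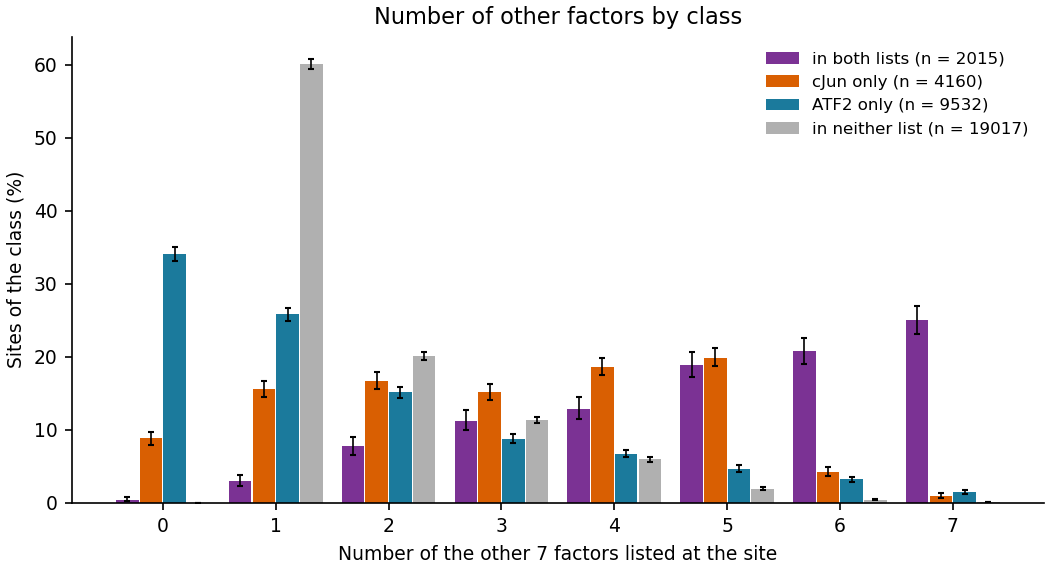
Percentage of sites of each class (y axis) by number of the other 7 factors listed at the site (x axis), with exact 95% intervals for counting error. Shared sites peak at 7 others (25.0%), cJun only sites are spread up to 5 others and ATF2 only sites peak at 0 (34.1%); intervals in neither list cannot have 0.

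JunB, the JUN protein closest to cJun in this set, followed cJun and not ATF2. It was listed at 93.6% of shared sites (92.4 to 94.6), 73.5% of cJun only sites (72.2 to 74.9) and 14.9% of ATF2 only sites (14.2 to 15.6), against 29.0% of all intervals. Shared sites exceeded ATF2 only sites by 78.7 points (77.4 to 79.9) and cJun only sites exceeded them by 58.7 points (57.1 to 60.2), each on all 20 chromosomes. Shared sites also exceeded cJun only sites, by 20.1 points (18.3 to 21.7), again on 20 chromosomes.

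FOSL2, a FOS protein that needs a partner to bind DNA, stood apart at shared sites. It was listed at 70.5% of them (68.5 to 72.5), at 14.5% of cJun only sites (13.5 to 15.7) and at 20.6% of ATF2 only sites (19.8 to 21.4), against 18.1% of all intervals. FOSL2 was thus near its overall frequency at sites of either factor alone and several times more frequent where both were listed. Shared sites exceeded cJun only sites by 56.0 points (53.7 to 58.2) and ATF2 only sites by 50.0 points (47.8 to 52.1), on all 20 chromosomes in each case. The lowest chromosome value of the shared class, 54.5%, lay above the highest of cJun only (20.5%) and of ATF2 only (35.1%).

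ATF7, the relative of ATF2, was nearly absent from cJun only sites. It was listed at 61.1% of shared sites (58.9 to 63.2), at 7.19% of cJun only sites (6.42 to 8.01) and at 38.1% of ATF2 only sites (37.1 to 39.1), against 21.2% of all intervals. The cJun only share lay below that of intervals in neither list (11.6%, 11.2 to 12.1). Shared sites exceeded cJun only sites by 53.9 points (51.6 to 56.1) and ATF2 only sites by 23.0 points (20.6 to 25.3), each on 20 chromosomes.

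The KLF factors and the receptors were most frequent at shared sites, next at cJun only sites and least at ATF2 only sites. KLF4 was listed at 51.8% (49.6 to 54.0), 30.2% (28.8 to 31.6) and 13.2% (12.5 to 13.9) of the shared, cJun only and ATF2 only classes, against 16.9% of all intervals. KLF5 was listed at 79.9% (78.1 to 81.6), 59.3% (57.7 to 60.8) and 36.4% (35.4 to 37.3) in the same order, against 49.3% of all intervals. VDR was listed at 67.6% (65.6 to 69.7), 57.6% (56.1 to 59.1) and 19.1% (18.3 to 19.9), against 34.0% of all intervals. RXR was listed at 73.5% (71.5 to 75.4), 58.4% (56.9 to 59.9) and 20.6% (19.8 to 21.4), against 34.8% of all intervals. All 4 factors thus lay above the common set at cJun sites of either kind and below it at ATF2 only sites. The 3249 ATF2 only sites with no other factor lower each share of that class. Intervals in neither list, which cannot lack all 7, had 12.2% for KLF4, 50.4% for KLF5, and 32.7% for VDR and for RXR. KLF4 at ATF2 only sites was thus slightly above that level. The shares were not compared without the sites that lack all 7. The step from cJun only to shared was smallest for the receptors. For VDR it was 10.0 points (7.47 to 12.5), on 17 of 20 chromosomes, and for RXR it was 15.1 points (12.6 to 17.5), on 19 of 20. Between cJun only and ATF2 only the receptors differed by 38.5 points for VDR (36.8 to 40.2) and 37.9 points for RXR (36.1 to 39.5), on all 20 chromosomes. ATF2 only sites held none of the 4 KLF and receptor factors in 56.5% of cases (55.5 to 57.5), against 11.3% of shared (9.96 to 12.8) and 23.5% of cJun only sites (22.2 to 24.8). The share was 23.3% of intervals in neither list (22.7 to 23.9). Of these 5382 ATF2 only sites, 3249 had no other factor at all, a state that intervals in neither list cannot have.

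**Figure D2:**
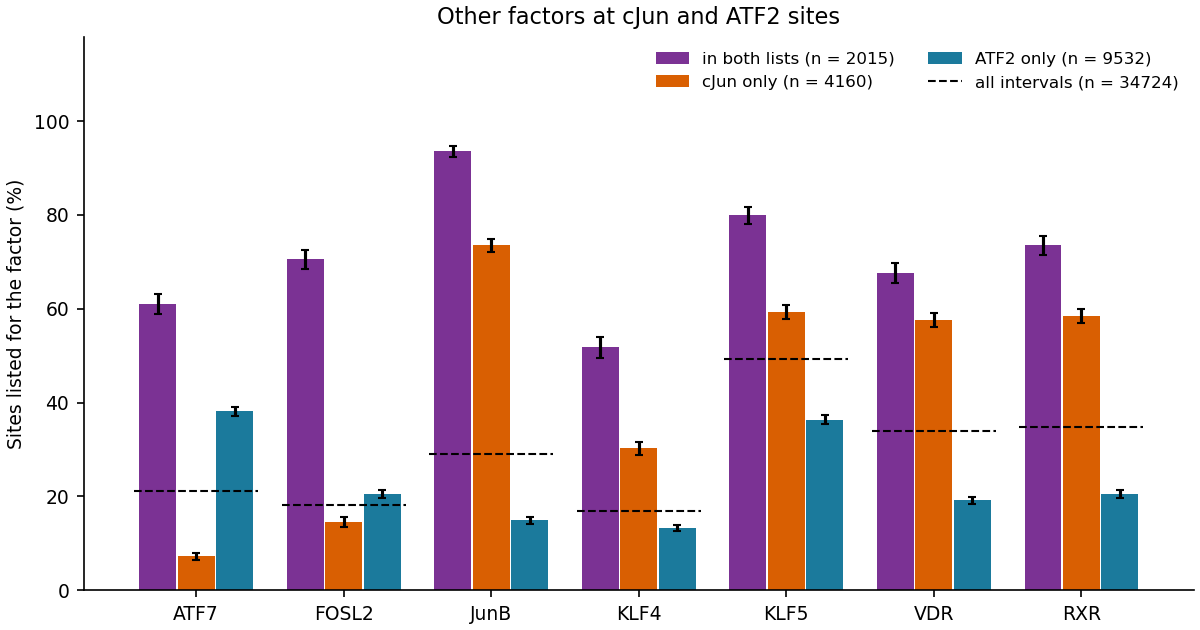
Percentage of sites (y axis) listed for each of the other 7 factors (x axis) in the 3 classes, with exact 95% intervals for counting error; dashed lines give the share of all 34724 intervals. FOSL2 stands at 70.5% of shared sites but 14.5% and 20.6% of sites of cJun or ATF2 alone, JunB follows cJun and ATF7 is lowest at cJun only sites (7.19%).

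Because shared sites were crowded, the classes were compared again among sites with the same combination of the other 6 factors, by a Mantel-Haenszel odds ratio with its 95% interval for counting error. Shared against cJun only sites, the odds of listing were higher for ATF7 (8.50, 7.21 to 10.0) and FOSL2 (6.70, 5.76 to 7.79). They were nearer to 1 for JunB (1.82, 1.43 to 2.32), KLF5 (1.49, 1.22 to 1.81), KLF4 (1.37, 1.15 to 1.64), RXR (1.28, 1.05 to 1.56) and VDR (0.806, 0.665 to 0.977). ATF7 and FOSL2 thus had the highest of the 7 odds ratios, and JunB was above 1 as well. With equal numbers of the other 6 in place of equal combinations, ATF7 (13.1), FOSL2 (10.5) and JunB (2.72, 2.21 to 3.35) were above 1 again, but KLF4 (0.770), KLF5 (0.677), RXR (0.429) and VDR (0.327) were all below 1, so the direction of KLF4, KLF5 and RXR depended on the form of the adjustment.

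Shared against ATF2 only sites, another factor stood out. With the same combination of the other 6, the odds ratio was 27.2 for JunB (22.1 to 33.4), 2.03 for FOSL2 (1.76 to 2.34), 1.76 for RXR (1.47 to 2.12), 1.59 for VDR (1.33 to 1.89) and 1.43 for KLF4 (1.21 to 1.68). It was 1.17 for ATF7 (1.02 to 1.34) and 1.05 for KLF5 (0.874 to 1.26). The excess of ATF7 at shared over ATF2 only sites was thus small once the other factors were equal. With equal numbers in place of equal combinations, JunB was at 32.5 (26.6 to 39.7), FOSL2 at 3.12 (2.75 to 3.53), RXR at 1.47 (1.28 to 1.70) and VDR at 1.24 (1.08 to 1.42). The intervals of ATF7 (1.09, 0.965 to 1.24) and KLF4 (1.04, 0.905 to 1.19) then included 1, and KLF5 was below it (0.7996, 0.684 to 0.935). Between cJun only and ATF2 only sites, the odds ratio was 18.1 for JunB (15.9 to 20.5) and 0.0947 for ATF7 (0.0802 to 0.112), with FOSL2 at 0.316 (0.274 to 0.363), VDR at 2.84 (2.48 to 3.26) and RXR at 2.02 (1.76 to 2.32). KLF5 was at 0.713 (0.623 to 0.815), below 1 although its share was higher at cJun only sites, and KLF4 was at 0.943 (0.811 to 1.10). With equal numbers, JunB was at 15.1, ATF7 at 0.0723, FOSL2 at 0.389, VDR at 3.98, RXR at 3.64, KLF4 at 1.17 (1.04 to 1.30) and KLF5 at 1.02 (0.926 to 1.12), so that the direction of both KLF factors depended on the adjustment.

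Sharing was then read by the combination of the 3 other bZIP factors at a site. Starting from cJun, sites with JunB but neither FOSL2 nor ATF7 were listed for ATF2 in 10.8% of 2637 cases (9.68 to 12.1). With FOSL2 beside JunB the share was 50.2% of 871 (46.8 to 53.5), with ATF7 beside JunB 61.6% of 370 (56.5 to 66.6), and with all 3 it was 87.6% of 1067 (85.5 to 89.5). Of the 1086 cJun sites with none of the 3, 3.87% were listed for ATF2 (2.80 to 5.19). ATF2 at cJun sites thus went with FOSL2 and with ATF7. JunB alone differed from none of the 3 by 6.98 points (5.24 to 8.57), on 19 of 20 chromosomes. The step from JunB alone to FOSL2 with JunB was 39.3 points (35.8 to 42.8) and that to ATF7 with JunB was 50.8 points (45.6 to 55.7), both on all 20 chromosomes. The order of the groups with JunB was not particular to cJun sites. Among intervals without cJun, ATF2 was listed at 382 and not listed at 3021 with JunB alone. The counts were 334 and 475 with FOSL2 and JunB, 266 and 129 with ATF7 and JunB, and 435 and 95 with all 3.

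Starting from ATF2, the picture turned on JunB. Sites with ATF7 but neither FOSL2 nor JunB were listed for cJun in 1.66% of 2283 cases (1.18 to 2.28), sites with FOSL2 alone in 3.63% of 524 (2.20 to 5.60) and sites with ATF7 and FOSL2 in 4.19% of 716 (2.84 to 5.93). Of the 4721 ATF2 sites with none of the 3, 0.890% were listed for cJun (0.642 to 1.20). In each of these groups without JunB, cJun was thus listed at fewer than 1 site in 20. With JunB alone the share was 42.8% of 668 (39.0 to 46.7), with ATF7 and JunB 46.2% of 494 (41.7 to 50.7), with FOSL2 and JunB 56.7% of 771 (53.1 to 60.2) and with all 3 it was 68.2% of 1370 (65.7 to 70.7). In the 4 pairs of groups that differed by JunB alone, the share was higher with JunB by 41.9 to 64.1 points, each on all 20 chromosomes. ATF7 beside JunB differed from JunB alone by 3.34 points (-2.42 to 9.10), higher on 8 and lower on 10 chromosomes. The difference with JunB was not particular to ATF2 sites. Among intervals without ATF2, cJun was listed at 2351 and not listed at 3021 with JunB alone. The counts were 18 and 1815 with ATF7 alone, and 142 and 129 with ATF7 and JunB. With FOSL2 alone they were 32 and 1554, and with FOSL2 and JunB 434 and 475. With ATF7 and FOSL2 they were 7 and 174, and with all 3 they were 132 and 95.

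These shares were also read by the number of KLF and receptor factors at the site. Among cJun sites with JunB alone, the share listed for ATF2 stayed between 7.64% and 12.6% over 0 to 4 of the KLF and receptor factors. Among cJun sites with all 3 bZIP factors it ran from 81.2% to 92.5%, with ATF7 and JunB from 44.7% to 66.7%, and with FOSL2 and JunB from 38.9% to 60.2%. The last 2 ranges overlapped, and both lay above that of JunB alone and below that of all 3. Among ATF2 sites the shares differed more with the KLF and receptor factors: with JunB alone the share listed for cJun was 24.0% of 150 sites with none of the 4 and 62.3% of 151 sites with all 4, and with all 3 bZIP factors it ran from 50.4% to 77.9%. That span for JunB alone was wider than the difference made by FOSL2 beside JunB, 13.9 points (8.70 to 18.9), on 19 of 20 chromosomes.

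**Figure D3:**
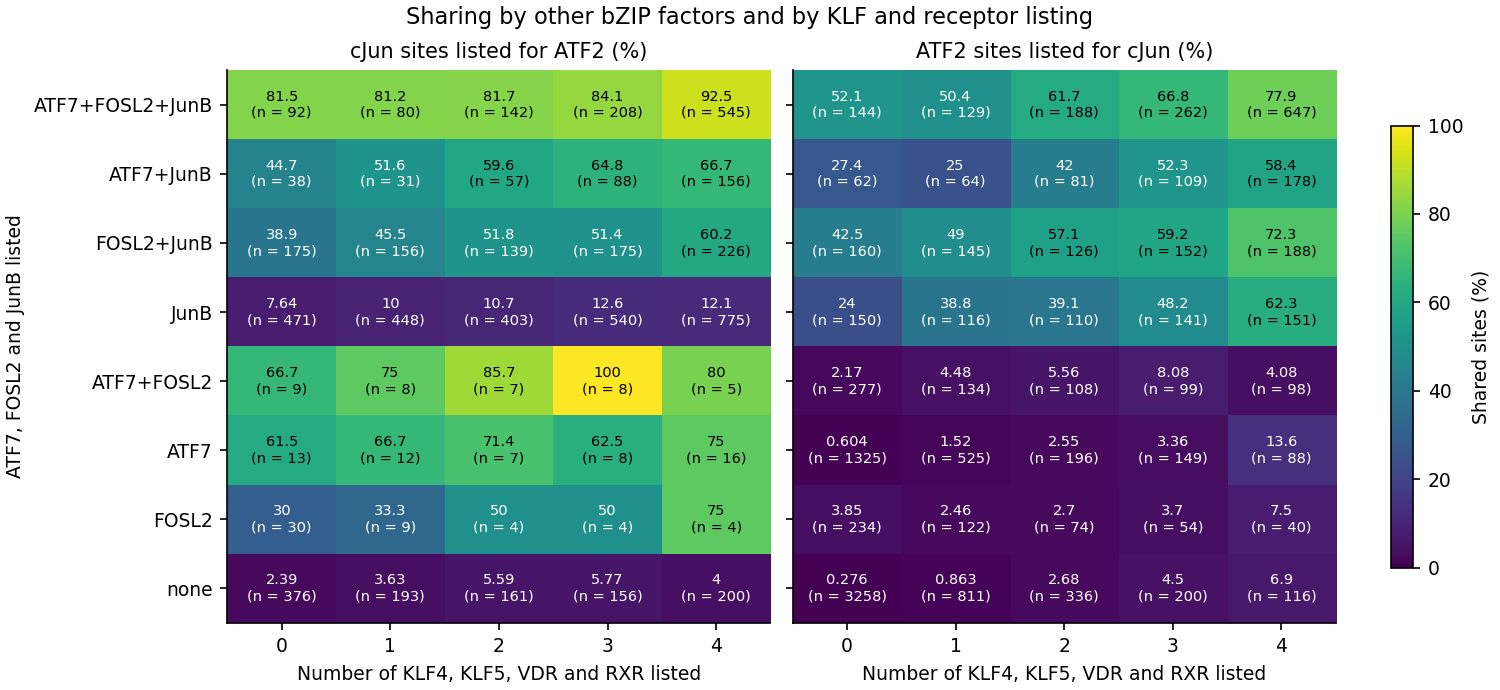
Percentage of cJun sites listed for ATF2 (left) and of ATF2 sites listed for cJun (right) by combination of ATF7, FOSL2 and JunB (rows) and number of KLF4, KLF5, VDR and RXR listed (columns), with the number of sites in each cell. On the left the JunB row stays at 7.64 to 12.6% while the rows with FOSL2 or ATF7 beside JunB are higher; on the right the rows without JunB are at most 13.6%. Cells with under 20 sites are thin.

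Whole combinations of the other 7 factors showed the same division. The shared class was led by all 7 factors (504 sites), followed by the 6 without ATF7 (136 sites), the 6 without KLF4 (126), the 6 without FOSL2 (104) and JunB with KLF4, KLF5, VDR and RXR (94). In order, these were 25.0%, 6.75%, 6.25%, 5.16% and 4.67% of shared sites. Of intervals in neither list they were 0.0999%, 0.179%, 0.0789%, 0.126% and 1.23%. The cJun only class was led by JunB with KLF4, KLF5, VDR and RXR, with 681 sites (16.4%, 15.3 to 17.5). It was followed by JunB alone (435), JunB with KLF5, VDR and RXR (411), no other factor (367) and KLF4, KLF5, VDR and RXR (192). None of these 5 held FOSL2 or ATF7. The leading combination was 1.23% of intervals in neither list. JunB alone was 10.5% of cJun only sites against 7.35% of these intervals. JunB with KLF5, VDR and RXR was 9.88% against 1.45%, and KLF4, KLF5, VDR and RXR were 4.62% against 2.95%. Where JunB, KLF4, KLF5, VDR and RXR were listed without FOSL2 and ATF7, 12.1% of 775 cJun sites were shared. Where all 7 were listed, 92.5% of 545 cJun sites were shared. The ATF2 only class was led by no other factor (3249 sites), ATF7 alone (1317, or 13.8%), KLF5 alone (580), ATF7 with KLF5 (381) and ATF7 with FOSL2 (271). JunB was in none of these 5. The ranks are by count. KLF5 alone was 6.08% of ATF2 only sites but 21.6% of intervals in neither list, which hold at least 1 other factor. ATF7 alone was 13.8% against 6.89%, ATF7 with KLF5 4.00% against 0.920%, and ATF7 with FOSL2 2.84% against 0.615%.

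Sharing did not rise evenly with the number of other factors. ATF2 was listed at 8.49% of cJun sites with 1 other factor, 18.3% with 2, 26.5% with 3, 25.1% with 4, 31.5% with 5, 70.4% with 6 and 92.5% with 7. The values with 3, 4 and 5 were close, and the step came between 5 and 6. At 6 of 7 others, at least 1 of FOSL2 and ATF7 has to be among them, and of the 828 cJun only sites with 5 others, 681 had the combination without both. A rise was also present without cJun. Among intervals without cJun, ATF2 was listed at 17.7% with 1 other factor, 27.3% with 2 and 28.1% with 3. The shares were 36.3% with 4, 54.6% with 5, 79.1% with 6 and 88.3% with 7. They lay above those of cJun sites with 1 to 6 others and below with 7. Seen from ATF2 the rise was steady: cJun was listed at 2.38% of ATF2 sites with 1 other factor, 9.76% with 2, 21.3% with 3, 28.8% with 4, 45.9% with 5, 57.7% with 6 and 77.9% with 7. This rise was not particular to ATF2 sites either. Among intervals without ATF2, cJun was listed at 647 and not listed at 11432 with 1 other factor. The counts were 630 and 2152 with 3, 775 and 1129 with 4, 828 and 372 with 5, and 176 and 81 with 6.

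Whether the pair met more often than its separate listing implies depended on the adjustment. Among 31099 intervals with 1 to 7 of the other factors, the unadjusted odds ratio of joint listing was 1.60 (95% interval 1.51 to 1.70). With equal numbers of the other 7 it was 0.592 (0.547 to 0.642). With the same combination of the other 7 it was 0.868 (0.784 to 0.961). The pair was thus above 1 without adjustment and below 1 with either adjustment. By number, the odds ratio was 0.431 with 1 other factor (0.330 to 0.563), 0.596 with 2 (0.496 to 0.716) and 0.923 with 3 (0.778 to 1.10). It was 0.588 with 4 (0.496 to 0.698), 0.382 with 5 (0.318 to 0.459), 0.628 with 6 (0.465 to 0.849) and 1.63 with 7 (0.919 to 2.90). The intervals with 3 and with 7 included 1. At equal numbers it was 0.827 where JunB was listed (0.749 to 0.914) and 0.354 where it was not (0.286 to 0.437). It was 0.783 where FOSL2 was listed (0.681 to 0.900) and 0.441 where it was not (0.394 to 0.493).

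The rows of the lists were not sorted by position. The 2015 shared sites stood in the same order in both lists, and the sources used here do not say what the order stands for. Shared sites came early. Their median place was 34.9% of the way down the cJun list (quartiles 15.6 and 57.3%), against 58.5% for cJun only sites (32.3 and 81.2%). In the ATF2 list the median place of shared sites was 26.2% (11.3 and 45.1%), against 56.1% for ATF2 only sites (30.5 and 78.9%). With each list cut into 10 deciles of rows, the first decile of the cJun list had 55.8% of its sites shared (51.7 to 59.7), and the last decile 6.31% (4.53 to 8.53). In the first decile of the ATF2 list 40.0% were shared (37.2 to 42.9), and in the last decile 0.606% (0.244 to 1.24). Sites early in the order also held more other factors, 5.74 on average in the first and 0.977 in the last decile of the cJun list, and 4.34 and 0.366 in those of the ATF2 list.

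The division by bZIP factors was present at every place in the order. In each of the 10 deciles of the cJun list, FOSL2 was more frequent at shared than at cJun only sites, by 28.8 to 72.6 points, and ATF7 by 20.7 to 70.3 points. In the first decile FOSL2 was listed at 82.8% of shared and 10.3% of cJun only sites. KLF5 was close there, at 98.5% of shared and 98.2% of cJun only sites, as was VDR, at 96.2% of shared and 96.3% of cJun only sites. In 9 of 10 deciles VDR was less frequent at shared than at cJun only sites. In the first decile, cJun only sites were thus close to shared sites in KLF5 and VDR and far below them in FOSL2 and ATF7. KLF5 and VDR were listed at nearly all sites of both classes in that decile, so a difference could hardly show there. In each decile of the ATF2 list JunB was more frequent at shared than at ATF2 only sites, by 53.6 to 78.0 points. The smallest difference was in the last decile, which held only 7 shared sites, and decile 9 held 41. ATF7 was higher at shared sites in 9 of 10 deciles, by at most 15.9 points.

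**Figure D4:**
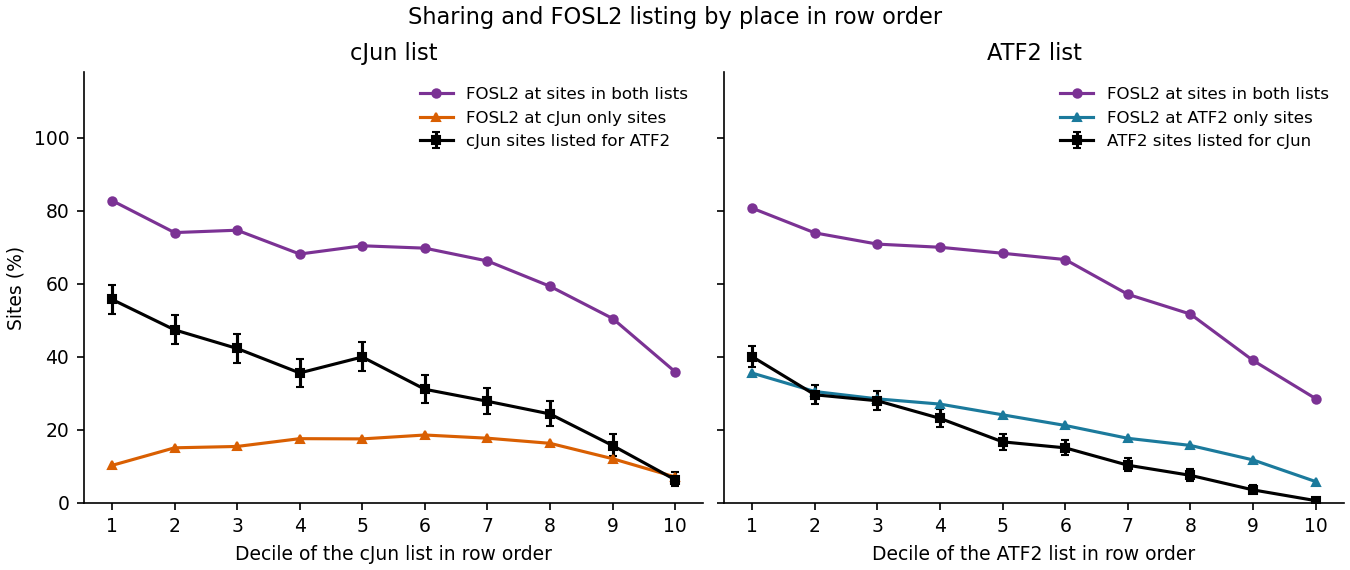
Percentage of sites shared with the other list (black squares, exact 95% intervals for counting error) and percentage listed for FOSL2 at shared and at unshared sites, by decile of the cJun list (left) and of the ATF2 list (right) in row order. Sharing drops to 6.31% and 0.606% in the last deciles, against 55.8% and 40.0% in the first, and FOSL2 is higher at shared sites in every decile. The last deciles held only 39 (cJun list) and 7 (ATF2 list) shared sites.

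Neighbouring sites were read from the distance between midpoints to the nearest other interval. A further ATF2 site lay within 10 kb of 38.9% of shared sites (36.8 to 41.1) and of 22.1% of cJun only sites (20.8 to 23.4), against 29.3% of intervals in neither list (28.7 to 30.0). cJun only sites thus had fewer ATF2 neighbours than intervals listed for neither factor, with a difference of -7.23 points (-8.63 to -5.79), on all 20 chromosomes and in each of 4 ranges of the number of other factors. With 0 or 1 other factor the values were 16.2% for cJun only and 29.4% for neither. With 6 or 7 they were 28.1% of 217 (22.2 to 34.6) and 34.0% of 100 sites (24.8 to 44.2), with intervals that overlapped. Without chromosome 10, which held the longest runs of ATF2 only sites, the shares of the classes were 21.2% and 28.3%. Shared sites exceeded intervals in neither list in 3 of the 4 ranges. With 2 or 3 other factors, an ATF2 site lay within 10 kb of 27.2% of 383 shared sites and 28.8% of intervals in neither list, and a cJun site lay within 10 kb of 16.2% of these shared sites and 20.5% of these intervals. The nearest ATF2 site lay at a median of 18.4 kb from shared sites and 42.9 kb from cJun only sites, against 30.1 kb from intervals in neither list. Another interval of any kind lay within 10 kb of 69.8% of shared sites, 57.6% of cJun only sites and 59.5% of intervals in neither list. With 0 or 1 other factor it was 47.4% of cJun only sites and 57.6% of intervals in neither list. The part of site density in the differences for ATF2 neighbours was not tested.

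From the side of ATF2 the difference was small. A cJun site lay within 10 kb of 26.1% of shared sites (24.1 to 28.0) and of 16.8% of ATF2 only sites (16.0 to 17.5), against 18.3% of intervals in neither list (17.7 to 18.8). ATF2 only sites minus these intervals gave -1.52 points (-2.45 to -0.588), and were lower on 17 of 20 chromosomes. The direction did not hold in every range of the number of other factors. With 0 or 1 other factor the shares were 14.0% for ATF2 only and 16.3% for neither, and with 6 or 7 a cJun site lay within 10 kb of 126 of 450 ATF2 only sites and 18 of 100 intervals in neither list. Few of the unshared sites lay close to an interval of the other list. The sources used here do not say how the common intervals were made, so near misses between the original peaks were not tested. An ATF2 interval overlapped 29 of the 4160 cJun only sites (0.697%), and 154 (3.70%, 3.15 to 4.32) had one within 1 kb. A cJun interval overlapped 60 of the 9532 ATF2 only sites (0.629%), and 266 (2.79%, 2.47 to 3.14) had one within 1 kb. For ATF2 only sites with a cJun site within 10 kb, the nearest was a shared one in 813 of 1597 cases (50.9%, 48.4 to 53.4). For cJun only sites with an ATF2 site within 10 kb, it was a shared one in 259 of 919 (28.2%, 25.3 to 31.2).

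**Figure D5:**
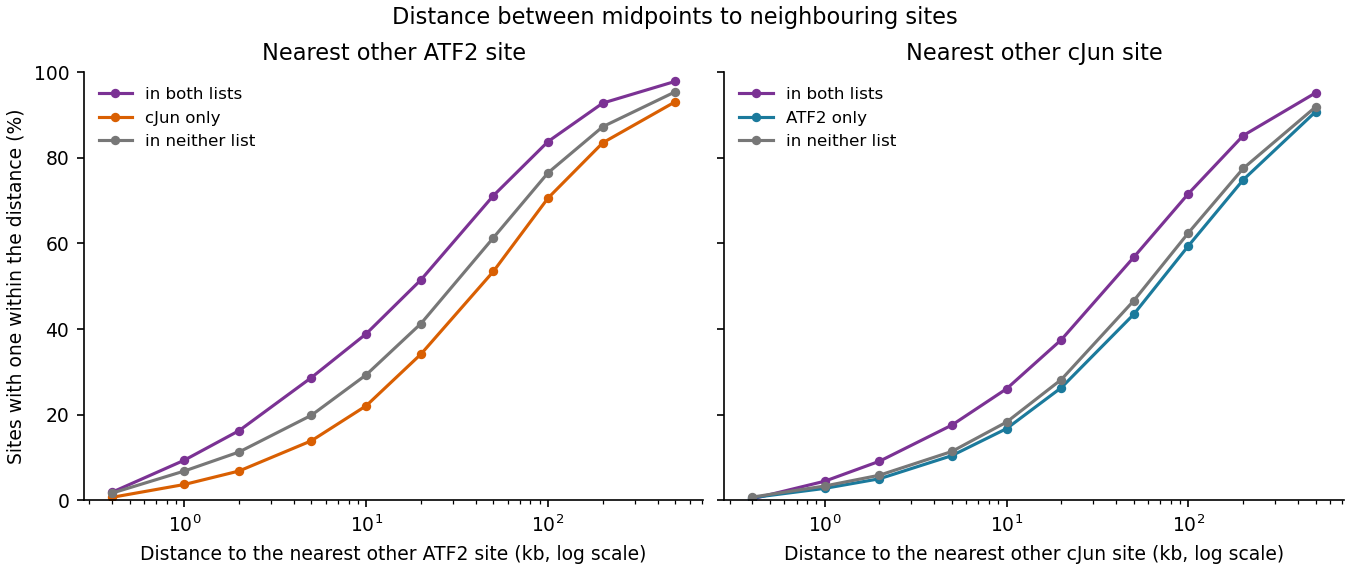
Percentage of sites (y axis) with another ATF2 site (left) or another cJun site (right) within a distance between midpoints (x axis, kb, log scale). For ATF2 neighbours the cJun only curve lies below that of intervals in neither list (22.1% against 29.3% at 10 kb); for cJun neighbours ATF2 only sites lie just below it (16.8% against 18.3%).

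ATF2 only sites formed the longest runs. Joining sites of 1 class with midpoints within 10 kb placed 14.1% of shared sites (12.6 to 15.7), 17.4% of cJun only sites (16.2 to 18.5) and 33.7% of ATF2 only sites (32.7 to 34.6) in runs of 2 or more. The classes differ in size, and a larger class has more chances to form runs. The longest run of ATF2 only sites held 35 of them on chromosome 10 (mm9, 107698608 to 107833098). Of the 73 intervals of all kinds in that stretch, FOSL2 and ATF7 were each listed at 34 and JunB at 9. The next 2, with 17 and 15 ATF2 only sites, lay on chromosome 10 from 107495421 to 107552710 and from 117807451 to 117854351. The longest run of cJun only sites held 7 on chromosome 2 from 148254210 to 148282283, where RXR was listed at all 10 intervals, KLF5 at 9, JunB, KLF4 and VDR at 8 and ATF7 at 1. The next runs held 6 on chromosome 10 from 107052548 to 107075596 and 5 on chromosome 16 from 25777578 to 25792914, the last with neither FOSL2 nor ATF7 at any interval. The longest runs of shared sites held 4, on chromosome 10 from 117421879 to 117431250 and on chromosome 13 from 53072043 to 53081498, and 3 on chromosome 1 from 40228933 to 40236769. FOSL2, JunB and ATF7 were listed at all 4 intervals of the first.

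Single sites illustrate the classes; each is a 400 bp interval in mm9 on chromosome 1 unless another is named, and what the annotation places there was not analysed here. The first shared sites with all 7 others lay at 16218432 to 16218831, 20059804 to 20060203 and 40228933 to 40229332. The first 2 had no other cJun site within 1739 kb and 3841 kb, while the third was 2.03 kb from the next shared site in its run. Shared sites with no other factor lay at 92952931 to 92953330, at 135752611 to 135753010 and on chromosome 2 at 116843588 to 116843987, between 56.2% and 90.1% of the way down the lists. The first cJun only sites with all 7 others lay at 63613586 to 63613985, 148164021 to 148164420 and 175810239 to 175810638, and their nearest ATF2 sites were 49.2, 2313 and 42.4 kb away. The first cJun only sites with no other factor lay at 14460454 to 14460853, 26744434 to 26744833 and 37272923 to 37273322, all late in the cJun list (84.8% to 98.2% of the way down). The first ATF2 only sites with all 7 others lay at 39811404 to 39811803, 58361222 to 58361621 and 90371287 to 90371686, with the nearest cJun sites 115.6, 315.3 and 51.5 kb away. The first with no other factor lay at 4775673 to 4776072, 5072945 to 5073344 and 9554627 to 9555026.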

How the data were processed

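The authors' deposited lists hold 400 bp intervals in mm9, 1 list per factor, with chromosome, start and end and no other value such as a score. Per the submitters' processing notes, FastQC, Bowtie and HOMER were used; the sources used here do not give versions, roles or the peak threshold. Of 30 labelled samples, the 9 transcription factor lists were used and the other 21 samples were not analysed here. From the lists, the autosomes and X were retained (2 intervals on Y were left out), and sites were matched by identical chromosome, start and end. Coordinates are printed 1-based. Shares, differences and Mantel-Haenszel odds ratios (Robins-Breslow-Greenland intervals) were computed with Python 3.11.15, numpy 2.4.6, pandas 2.3.3 and scipy 1.17.1; the code was tested on simulated lists. The odds ratios of joint listing of cJun and ATF2 left out intervals with none of the other 7 factors, since every interval of the common set holds a listing. The odds ratios between classes kept such sites. Named sites were the first 3 by position on chromosomes 1 to 17 and 19 with the most, and with none, of the other 7 factors in each class, with the 5 most frequent combinations and the 3 longest runs. Classes, comparisons and alternatives were chosen with earlier results of these data known.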

Additional observations from a re-analysis of the deposited data

How the results depend on the processing

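No paired analysis was possible because each factor had 1 library. Counting overlap by at least 1 bp, or leaving out chromosome 10, kept the shares of shared sites and the odds ratio within their intervals; overlap moved the mean number of other factors at ATF2 only sites to 1.68. With midpoints within 1 kb counted as the same site, 35.1% of cJun and 19.8% of ATF2 sites were shared, and shared, cJun only and ATF2 only sites held 5.07, 3.08 and 1.83 other factors. Isolated sites, with no other interval within 10 kb, gave 25.6% and 14.4%, with 4.55, 2.76 and 1.39 other factors. Sites with at least 1 other factor gave 34.6% and 24.2%. The odds ratio of the pair was reversed to 1.60 without stratification, and was 0.868 with the same combination of the other 7, 0.803 with equal numbers within each combination of JunB and ATF7, and 0.826 with equal numbers of KLF and receptor factors within each combination of ATF7, FOSL2 and JunB. The last was chosen after seeing the data, as were the alternatives for differences of shares: none of 84 such values changed sign, and 25 left the interval of the main value. Of 40 shares by bZIP combination, 6 did. List length and depth limit every share, and no score allowed the lists to be set at equal stringency.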

Other observations

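The lists began with sites that differ in company. The first row of both lists was an interval on chromosome 10 (mm9, 117158496 to 117158895) listed for ATF7, FOSL2 and KLF5 but not JunB. Rows 2, 3 and 5 of the ATF2 list held ATF2 only intervals near the start of chromosome 9 (3005726 to 3006125, with ATF7), on chromosome 17 (39982241 to 39982640, with ATF7 and FOSL2) and near the start of chromosome 11 (3023678 to 3024077, with no other factor). Rows 2 and 3 of the cJun list, on chromosome 2 (77813626 to 77814025) and chromosome 10 (117540490 to 117540889), were shared sites with all 7 other factors. Rows 4 and 5 were cJun only sites on chromosome 10 (107052548 to 107052947 and 116738823 to 116739222). Both were listed for JunB, KLF4, KLF5, VDR and RXR. The sequence and repeat content of the places of these first rows was not analysed here.

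Chromosome X held 2.09% of cJun only sites (1.68 to 2.57), 1.22% of ATF2 only sites (1.01 to 1.46) and 0.546% of shared sites (0.273 to 0.975), against 2.40% of intervals in neither list (2.19 to 2.63). On chromosome Y, 1 interval (2775691 to 2776090) was listed for cJun with KLF4 and VDR, and ATF2 was listed at none.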
